A study of Mus musculus with 2 samples.

Results

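The enzymes and proteins described here place, remove or bind methyl groups on histone lysines, or work with proteins that do. Lysine 9 of histone H3 (H3K9) is at the centre. They are 36 mouse genes: the KDM3 family that holds Kdm3a, the other lysine demethylases and Jumonji proteins, the H3K9 methyltransferases, and the HP1 proteins, which bind methylated H3K9, with their corepressor partner Trim28. Members were taken as probe sets that the platform annotation gives to exactly 1 gene symbol on that list. This found 101 probe sets for 35 of the 36 genes, among 34945 probe sets with exactly 1 symbol and 45037 probe sets in all. Suv39h1, which places trimethyl marks on H3K9, had no such probe set.

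Skeletal muscle RNA was measured on 2 Affymetrix whole-genome mouse arrays. The first carried RNA of mice null for Jhdm2a, the older name of Kdm3a, and the other carried RNA of wild-type mice. Each array held RNA combined from 3 male mice aged 3 months. Both genotypes trace to 129 embryonic stem cells and were backcrossed onto C57BL/6 over 4 generations, by their strain label. The sources used here do not give the kind of null allele, the muscle taken or the relation between the mice. The comparison asks which transcripts differ in level when this demethylase is disrupted. With 1 array per genotype there is no replicate check and no p-value, and differences describe these 2 pools only.

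Methylation of H3K9 marks silent chromatin. SUV39H, SETDB1 and the EHMT pair write it, and HP1 proteins dock on it and help to keep the region closed. Demethylases of the Jumonji class take the methyl groups off with iron and 2-oxoglutarate, while the LSD enzymes use a flavin. KDM3A removes mono- and dimethyl groups from H3K9. It is known as a coactivator of nuclear receptors, as a gene induced in hypoxia, and, in mice that lack it, for effects on spermatogenesis and energy balance.

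The upstream sequence of Kdm3a is shown because this is the disrupted gene and its transcript was still read on the null-labelled array. RefSeq lists 3 starts for Kdm3a on GRCm38.p6, all on the minus strand of chromosome 6. The 250 bases before the outermost and the innermost start are given 5′ to 3′, with the hypoxia response core GCGTG in capitals where it occurs on either strand.

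Kdm3a outermost start, chr6:71632918-71633167: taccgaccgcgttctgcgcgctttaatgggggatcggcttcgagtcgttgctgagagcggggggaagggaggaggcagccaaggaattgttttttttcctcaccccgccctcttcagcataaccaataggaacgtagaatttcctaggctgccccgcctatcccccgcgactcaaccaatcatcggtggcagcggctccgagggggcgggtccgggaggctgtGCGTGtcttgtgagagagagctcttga
Kdm3a innermost start, chr6:71609140-71609389: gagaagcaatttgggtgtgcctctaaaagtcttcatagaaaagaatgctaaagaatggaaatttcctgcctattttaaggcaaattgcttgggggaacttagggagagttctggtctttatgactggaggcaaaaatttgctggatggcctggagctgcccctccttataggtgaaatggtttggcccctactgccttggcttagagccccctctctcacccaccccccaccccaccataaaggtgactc

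The outermost window held 20 CpG dinucleotides at 59.6% GC, and the innermost held 0 CpG at 48.4% GC. The start between them had 31 CpG and 72.8% GC. GCGTG was found once, before the outermost start, and ACGTG in none of the 3 windows. Over all 32851 RefSeq starts in the table, 28.2% had GCGTG and 16.6% had ACGTG on either strand of the same 250 bases. Among members, 29 of 36 genes matched the table, with 41 starts. Of these, 33 (80.5%) had GC above 50% and an observed over expected CpG ratio above 0.6, against 30.8% of all starts. At least 1 of the 2 hypoxia cores stood before 27 of the 41 member starts (65.9%), against 38.6% of all starts. The median GC content was 60.4% for members and 52.4% for all starts, and both cores contain CpG, so these shares are not independent. These are matches of letters and not sites of binding. The sources used here do not say which of the 3 starts the Kdm3a probe set reports on.

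The values are MAS5 signals, the summary that Affymetrix software makes of the short probes in a probe set, on a linear scale. A probe set was treated as measured when its signal lay above 182 on both arrays, the 60th percentile of all signals. By this rule 53 of the 101 member probe sets were measured, from 32 of the 36 genes. Another 5 were above the floor on 1 array, and 43 on neither. For the 5, a fold given below as a minimum is the brighter signal over the floor. It depends on where the floor was set and has no error. The members without a measured probe set were Suv39h1, Suv39h2, Kdm4d and Cbx3. Nearest the floor, the Cbx5 probe set 1421934_at was inside, with 202 on the null-labelled array, against 274 on the wild-type-labelled array. The Cbx3 probe set 1432628_at was outside, with 197 on the null-labelled array, against 160.4 on the wild-type-labelled array. On both arrays the 2% trimmed mean of signals was 500. The floor was passed by 18026 probe sets in the null-labelled pool and by 18004 in the wild-type-labelled pool.

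All 12 markers of skeletal muscle on a chosen list, such as Ckm, the muscle creatine kinase, and Acta1, skeletal actin, were above the floor on both arrays. Their summed signal was 255368 on the null-labelled array, against 225982 on the wild-type-labelled array. Markers of fat, liver and neutrophils differed strongly between the pools. The 12 adipocyte markers with a probe set, Ucp1 and Adipoq among them, summed to 5295 on the null-labelled array, against 88289 on the wild-type-labelled array, and 9 of the 10 measured were at least 1.5-fold lower. The 11 hepatocyte markers summed to 3194 on the null-labelled array, against 28478 on the wild-type-labelled array, with 4 and 9 of them past the floor. The 9 neutrophil markers summed to 9234 on the null-labelled array, against 960.3 on the wild-type-labelled array, with 9 and 1 of them past the floor. Macrophage and lymphocyte markers summed to 4769 on the null-labelled array, against 5947 on the wild-type-labelled array. Erythroid markers summed to 10080.2 and Schwann cell markers to 16925 on the null-labelled array, against 7269 and 12076 on the wild-type-labelled array. Of the 6 measured Schwann cell markers, 4 were at least 1.5-fold higher and 1 was lower. The lower one, S100b, read 274 on the null-labelled array, against 1506 on the wild-type-labelled array. Endothelial and fibroblast markers summed to 57035 on the null-labelled array, against 51666 on the wild-type-labelled array. Some markers lay far under the floor on both arrays, such as the erythroid Epb42, at 12.1 on the null-labelled array, against 9.1 on the wild-type-labelled array. In such bulk RNA a smaller number of cells of a type and less RNA per cell cannot be told apart, and the part of these cell types in the values of the members was not tested.

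The Kdm3a transcript was not lower on the null-labelled array. Its single probe set, 1426810_at, read 488 on the null-labelled array, against 406 on the wild-type-labelled array. This is 1.20-fold higher, a log2 ratio of 0.26, at the 76.2 percentile of log2 ratios over all 15403 measured probe sets. Measured probe sets of the same gene disagreed with an SD of 0.29 in log2 ratio, pooled over 3719 genes with more than 1. The Kdm3a difference was smaller than this spread between probe sets. That spread does not measure variation between replicate arrays or between pools of mice. The sources used here do not say whether the probe set reads the disrupted region of Kdm3a. Nor do they give the kind of null allele, so the level to be read here from a null gene is not known. The signal is therefore no check of the genotype in either direction. Every direction below rests on the labels alone.

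The relatives of Kdm3a also had close signals on both arrays. Kdm3b, the nearest paralog and likewise an H3K9 demethylase, read 961 on the null-labelled array, against 923 on the wild-type-labelled array with probe set 1428320_at, a log2 ratio of 0.06. Jmjd1c, a larger Jumonji protein of the same family, read 1570.4 on the null-labelled array, against 1276 on the wild-type-labelled array with 1426900_at, a log2 ratio of 0.30. Its other probe sets, 1439998_at and 1448049_at, stayed under the floor, at 54.0 and 71.0 on the null-labelled array, against 81.5 and 131 on the wild-type-labelled array. So did 1458417_at of Kdm3b, at 84.9 on the null-labelled array, against 102 on the wild-type-labelled array. Hr, the hairless corepressor of skin and hair follicles whose Jumonji domain resembles that of KDM3A, was lower with both probe sets. They read 338 and 1459 on the null-labelled array, against 428 and 1726 on the wild-type-labelled array, log2 ratios of -0.34 and -0.24. None of the 5 KDM3 family probe sets reached 1.5-fold.

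**Figure D1:**
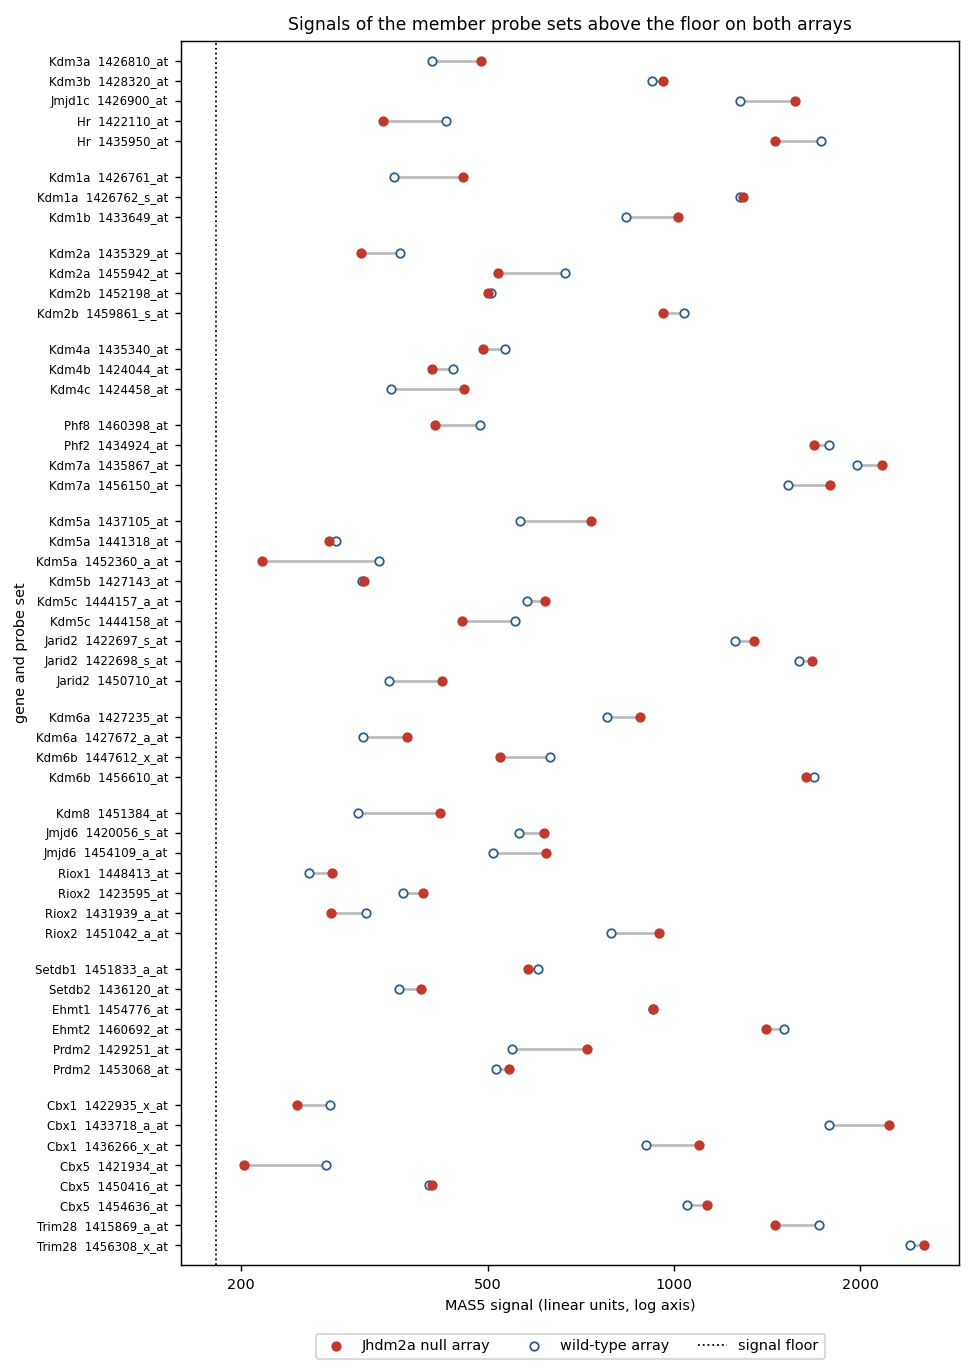
MAS5 signal (log axis) of each of the 53 member probe sets above the floor on both arrays, with the Jhdm2a null array as filled red points and the wild-type array as open blue points, joined by a grey line and grouped by role. The dotted line is the floor at 182. The widest gap on this axis is that of the Kdm5a probe set 1452360_a_at, at 216 and 334.

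Across the list, 1 of 53 measured probe sets (1.89%) was at least 1.5-fold apart between the pools, and it was lower on the null-labelled array. Of all 15403 measured probe sets, 12.0% passed this fold, 5.31% higher and 6.73% lower. The median log2 ratio of members was 0.07 with an SD of 0.24, against 0.04 with an SD of 0.47 over all measured probe sets. Of the members, 31 were above 0 and 22 below, and the 58.5% above 0 was close to the 55.6% over all measured probe sets. At 2-fold no member was called, against 3.16% of all measured probe sets, 2.42% lower. A smaller difference, a log2 ratio of 0.32 in size, was reached by 10 members, against 34.2% of all. The remaining 43 of 53 members (81.1%) were closer to 0, as were 65.8% of all measured probe sets. After the 1 probe set past 1.5-fold, the next furthest from 0 was 1421934_at of Cbx5, which was 1.36-fold lower.

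**Figure D2:**
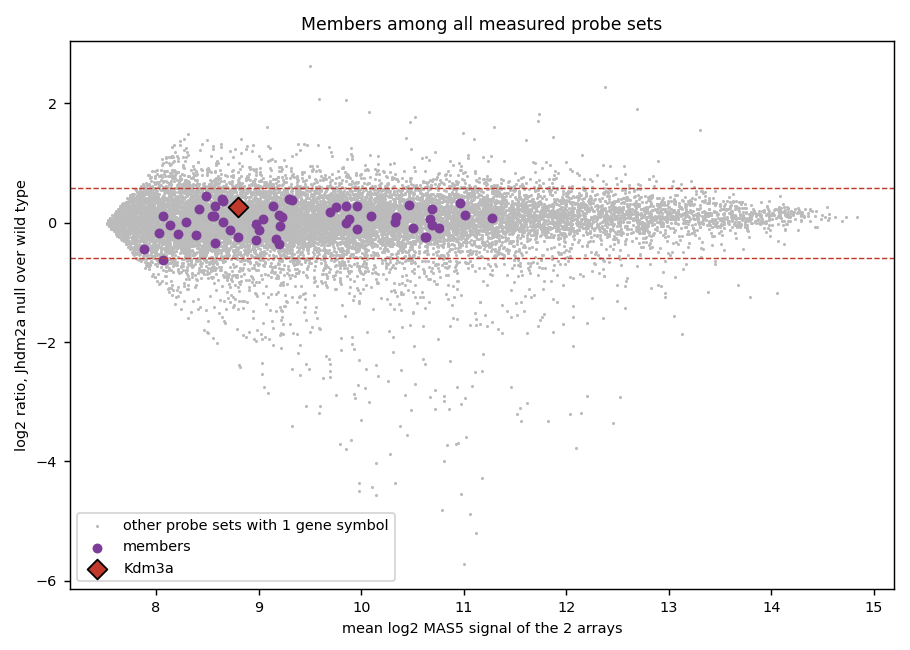
Log2 ratio of the null array over the wild-type array against mean log2 signal for all 15403 measured probe sets (grey), with the 53 members in purple and Kdm3a as a red diamond. Dashed lines stand at 1.5-fold in each direction. All members but 1 lie between the dashed lines, while grey points reach -5.71, the value of Ucp1.

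The single probe set past 1.5-fold among the 53 above the floor on both arrays belongs to Kdm5a, a demethylase of trimethylated H3K4 that binds the retinoblastoma protein. Probe set 1452360_a_at read 216 on the null-labelled array, against 334 on the wild-type-labelled array, 1.55-fold lower (log2 ratio -0.63). The other 2 Kdm5a probe sets measured on both arrays did not share this difference. The brightest, 1437105_at, read 733 on the null-labelled array, against 563 on the wild-type-labelled array, a log2 ratio of 0.38. The third, 1441318_at, read 277 on the null-labelled array, against 285 on the wild-type-labelled array, a log2 ratio of -0.04. The mean over the 3 was -0.10 ± 0.51 (SD of 3 probe sets), so the gene as a whole had no direction beyond the disagreement of its probe sets. Another, 1437106_at, passed the floor in the wild-type-labelled pool alone, at 112 on the null-labelled array, against 199 on the wild-type-labelled array, at least 1.09-fold lower. The last 2 stayed under the floor on both arrays. Of these, 1444842_at read 80.3 on the null-labelled array, against 115 on the wild-type-labelled array, and 1445541_at read 64.6 on the null-labelled array, against 63.2 on the wild-type-labelled array.

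The remaining KDM5 genes and Jarid2 lay closer to 0. Kdm5b, which also demethylates H3K4, read 316 on the null-labelled array, against 313 on the wild-type-labelled array. Its probe set 1427142_s_at, which passed the floor in the wild-type-labelled pool alone, was at least 1.09-fold lower. Kdm5c, the X-linked H3K4 demethylase, had log2 ratios of 0.10 and -0.28 from 1444157_a_at and 1444158_at. The brighter of them read 618 on the null-labelled array, against 578 on the wild-type-labelled array, and its 7 other probe sets were under the floor on both arrays. Jarid2, a Jumonji protein that lacks demethylase activity and works with Polycomb repressive complex 2, had log2 ratios of 0.10, 0.07 and 0.29. Its brightest probe set, 1422698_s_at, read 1669 on the null-labelled array, against 1594 on the wild-type-labelled array.

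Among demethylases that also act on methylated H3K9, the KDM4 genes were read with 1 measured probe set each. Kdm4c, which removes trimethyl marks from H3K9 and H3K36, read 459 on the null-labelled array, against 349 on the wild-type-labelled array, a log2 ratio of 0.39. Kdm4a read 492 on the null-labelled array, against 534 on the wild-type-labelled array, and Kdm4b read 406 on the null-labelled array, against 439.6 on the wild-type-labelled array, each with a log2 ratio of -0.12. Kdm4d, the testis-rich member, had 1 probe set, at 78.1 on the null-labelled array, against 61.9 on the wild-type-labelled array, both under the floor.

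The PHD-finger Jumonji proteins read H3K4 methylation and remove marks such as dimethylated H3K9. Phf8, which is X-linked, read 411 on the null-labelled array, against 485 on the wild-type-labelled array, a log2 ratio of -0.24. Phf2 read 1681 on the null-labelled array, against 1783 on the wild-type-labelled array, a log2 ratio of -0.08. Kdm7a had log2 ratios of 0.13 and 0.23 from its 2 measured probe sets, the brighter of which read 2167 on the null-labelled array, against 1973 on the wild-type-labelled array. One more Kdm7a probe set, 1427359_at, read 284 on the null-labelled array and 145 on the wild-type-labelled array, under the floor there, which makes it at least 1.56-fold higher. This probe set passed the floor only on the array where it was high, so its bound is not set against the measured Kdm7a ratios.

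The LSD enzymes demethylate mono- and dimethylated H3K4, and KDM1A also serves in the CoREST corepressor complex. Kdm1a had log2 ratios of 0.37 and 0.01, and its brighter probe set, 1426762_s_at, read 1293 on the null-labelled array, against 1280.2 on the wild-type-labelled array. Kdm1b, known for its role in setting imprints in oocytes, read 1016 on the null-labelled array, against 836 on the wild-type-labelled array, a log2 ratio of 0.28. The brighter Kdm1a probe set turned below 0 when the arrays were centred on their median or by loess.

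KDM2 proteins remove methyl groups from H3K36 and bind unmethylated CpG. All 4 measured KDM2 probe sets, from 2 genes, were below 0, as were 6841 of all 15403 measured probe sets. The Kdm2b probe set 1452198_at was above 0 after quantile normalization. Kdm2a read 519.6 on the null-labelled array, against 666 on the wild-type-labelled array with 1455942_at, a log2 ratio of -0.36, and -0.21 with 1435329_at. Kdm2b, which brings a Polycomb complex to CpG islands, had log2 ratios of -0.02 and -0.11, and its brighter probe set read 959.8 on the null-labelled array, against 1038 on the wild-type-labelled array. The largest of these differences was 1.28-fold.

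KDM6 enzymes remove trimethyl marks from H3K27. Kdm6a, the X-linked enzyme also called UTX, read 881 on the null-labelled array, against 779.9 on the wild-type-labelled array with its brightest probe set, and its 2 log2 ratios were 0.18 and 0.23. Kdm6b read 1635 on the null-labelled array, against 1682 on the wild-type-labelled array with 1456610_at, and its 2 log2 ratios were -0.04 and -0.27. The 2 genes thus lay on opposite sides of 0, each by a log2 ratio of at most 0.27 in size.

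The Jumonji hydroxylases, whose best known substrates are not histones, had 6 of 7 measured probe sets above 0, with a median of 0.14, where 55.6% of all measured probe sets were above 0 with a median of 0.04. Kdm8, also called JMJD5, read 418 on the null-labelled array, against 308 on the wild-type-labelled array, a log2 ratio of 0.44 and the highest of all 53. Jmjd6, a lysyl hydroxylase of splicing factors, had 0.14 and 0.28, and read 617 on the null-labelled array, against 561 on the wild-type-labelled array, with its brightest probe set. Riox1 and Riox2 hydroxylate histidines of ribosomal proteins. Riox1 read 279.9 on the null-labelled array, against 258 on the wild-type-labelled array, a log2 ratio of 0.12. Riox2 had 0.11, -0.18 and 0.26, with 947 on the null-labelled array, against 791 on the wild-type-labelled array from its brightest probe set.

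**Figure D3:**
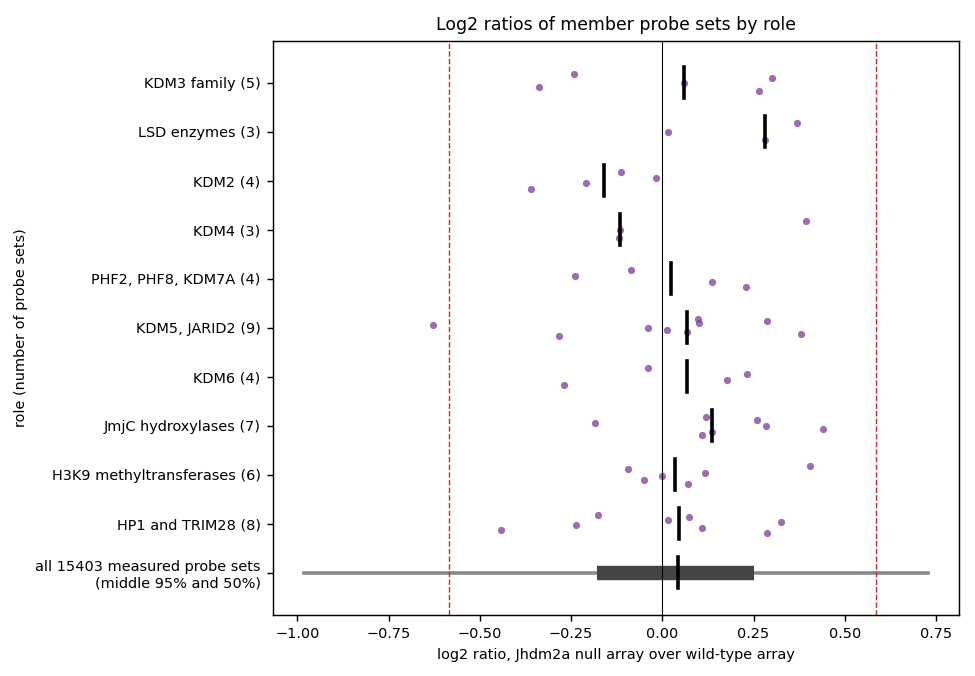
Log2 ratio of the null array over the wild-type array for each measured member probe set, by role, with a black bar at the median of the role. The bottom row gives the middle 95% (thin) and middle 50% (thick) of all 15403 measured probe sets, and dashed lines stand at 1.5-fold. Role medians run from -0.16 for KDM2 to 0.28 for the LSD enzymes.

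Enzymes that write H3K9 methylation had log2 ratios between -0.09 and 0.40, with a median of 0.03 over 6 probe sets of 5 genes. Ehmt1 and Ehmt2, also called GLP and G9a, work as a pair that places the mono- and dimethyl marks KDM3A removes. Ehmt1 read 925 on the null-labelled array, against 926 on the wild-type-labelled array, and Ehmt2 read 1409 on the null-labelled array, against 1504 on the wild-type-labelled array. Setdb1, the H3K9 methyltransferase recruited by TRIM28, read 581 on the null-labelled array, against 602 on the wild-type-labelled array, and its relative Setdb2 390.1 on the null-labelled array, against 359.9 on the wild-type-labelled array. Prdm2, the tumour suppressor RIZ, was the highest of them. Its probe set 1429251_at read 723 on the null-labelled array, against 547 on the wild-type-labelled array, a log2 ratio of 0.40, while 1453068_at had 0.07. Its probe set 1444123_at passed the floor in the null-labelled pool alone, at 189 on the null-labelled array, against 127 on the wild-type-labelled array, at least 1.04-fold higher. All 3 probe sets of Suv39h2 stayed under the floor, at 24.6 to 49.5 on the null-labelled array, against 14.8 to 37.0 on the wild-type-labelled array.

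The HP1 proteins, which bind methylated H3K9, and their partner Trim28 gave mixed signs within genes. Cbx1, or HP1 beta, had 0.32 and 0.29 from its brighter probe sets and -0.18 from 1422935_x_at, which read 246 on the null-labelled array, against 278 on the wild-type-labelled array. The brightest Cbx1 probe set, 1433718_a_at, read 2229 on the null-labelled array, against 1779.9 on the wild-type-labelled array. Cbx5, or HP1 alpha, had -0.44, 0.02 and 0.11, where the lowest came from the dimmest probe set and the highest from the brightest, at 1132 on the null-labelled array, against 1051 on the wild-type-labelled array. Trim28, the corepressor that zinc finger proteins bring to silenced repeats, had -0.24 and 0.07. Its brighter probe set, 1456308_x_at, read 2535 on the null-labelled array, against 2408 on the wild-type-labelled array. Cbx3, or HP1 gamma, passed the floor in the null-labelled pool alone with 1432628_at, at least 1.08-fold higher.

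Agreement between probe sets sets how finely a member can be read. Of 16 genes with 2 or more measured probe sets, 10 had all of them on one side of 0 and 6 had both signs. The 6 were Kdm5a, Kdm5c, Riox2, Cbx1, Cbx5 and Trim28. The gap between the highest and the lowest log2 ratio of a gene had a median of 0.27 and ran from 0.06 for Kdm6a to 1.01 for Kdm5a. It was above 0.5 for Kdm5a, Cbx1 and Cbx5. Within genes the pooled SD was 0.25, and the SD of the 32 gene means was 0.19.

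Position in the genome and sex linkage were also followed. The members lie on 19 chromosomes. Besides Kdm3a, chromosome 6 carries Kdm5a, Kdm7a and Cbx3, and its 6 measured probe sets had a median log2 ratio of 0.18 with a range from -0.63 to 0.38. The X-linked genes Kdm5c, Kdm6a and Phf8 gave 5 measured probe sets with a median of 0.10. Kdm5d and Uty, the Y-linked counterparts of Kdm5c and Kdm6a, are outside the list of members. They read 504 and 596 on the null-labelled array, against 396 and 613 on the wild-type-labelled array.

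Dimmer members scattered more than bright ones. The 20 member probe sets with a mean signal between the floor and 500 had an SD of 0.29 in log2 ratio. The SD was 0.23 for 18 between 500 and 1000 and 0.18 for 15 between 1000 and 3000. Over all probe sets the SD went the other way, at 0.39, 0.44 and 0.52 in the same ranges. Ppara, the fatty acid oxidation receptor, was lower in all 3 probe sets, at 809, 280.3 and 843 on the null-labelled array, against 2220.3, 647 and 1868 on the wild-type-labelled array. Adipocyte marker sums were 5295 on the null-labelled array, against 88289 on the wild-type-labelled array, and hepatocyte marker sums 3194, against 28478. The part of these cell types in the Ppara values was not tested. No member reached the size of these Ppara differences, the smallest of which was a log2 ratio of -1.15. Ppara was chosen after seeing its values, so it sets no scale for the members.

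Other genes of histone modification, and dioxygenases related to the Jumonji enzymes, were read from 5 lists with 119 measured genes and 187 probe sets. The 1.5-fold threshold was passed upwards by 10 of these probe sets and downwards by 7. Together these were 9.09% of the 187, against 12.0% of all measured probe sets, of which 5.31% were higher and 6.73% lower. The median was 0.04, as for all measured probe sets. Partners of H3K9 methylation and heterochromatin had 3 higher and 3 lower of 38, with a median of 0.08. Zfp644, a zinc finger partner of the G9a and GLP pair, had log2 ratios of 0.82, 0.70, 0.29, 0.11 and -0.67. With 1419984_s_at it read 1535 on the null-labelled array, against 868 on the wild-type-labelled array, and with 1436985_at 220.4 on the null-labelled array, against 351 on the wild-type-labelled array. Chd4, the remodeller of the NuRD complex, read 242 on the null-labelled array, against 469.8 on the wild-type-labelled array with 1436343_at, a log2 ratio of -0.96, but -0.17 with its brighter probe set. Smarcad1, a remodeller that helps to restore heterochromatin, had 0.72 from one probe set, while its other read 316.8 on the null-labelled array, against 316.9 on the wild-type-labelled array.

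Methyltransferases of H3K4, H3K36 and H3K79 had 3 higher and 2 lower of 36, with a median of -0.03. Smyd1, a methyltransferase confined to heart and skeletal muscle, was above 0 in all 4 measured probe sets, with log2 ratios from 0.27 to 0.73. It read 4686 on the null-labelled array, against 2953 on the wild-type-labelled array with 1450203_at, and 10002 on the null-labelled array, against 8318 on the wild-type-labelled array with its brightest, 1441667_s_at. Smyd5 had 1.37 from 1447749_at, at 484 on the null-labelled array, against 187 on the wild-type-labelled array, but -0.18 from its other measured probe set. Kmt2c, an enhancer H3K4 methyltransferase, had -0.94 from 1457193_at and 0.44, -0.01 and -0.05 from the others.

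Polycomb genes, which write and read H3K27 methylation, had 2 higher and 0 lower of 40, with a median of 0.15 and 28 above 0, against 55.6% above 0 over all measured probe sets. After loess that median was 0.09. Rnf2, the ubiquitin ligase of Polycomb complex 1, had 0.67 and 0.25, and the larger came from signals of 1111 on the null-labelled array, against 699.8 on the wild-type-labelled array. Rbbp4, a histone chaperone, had 0.65, -0.12 and -0.18. Partners of LSD1 and histone deacetylases had 0 higher and 1 lower of 32, with a median of -0.04. The lower one belongs to Sin3b, a corepressor scaffold, whose 4 probe sets were all below 0, from -0.66 to -0.13. It read 832 on the null-labelled array, against 1315 on the wild-type-labelled array, with the lowest of them.

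Dioxygenases that share the cofactor 2-oxoglutarate with the Jumonji enzymes had 2 higher and 1 lower of 41, with a median of 0.03 that was -0.03 after loess. Tmlhe, the first enzyme of carnitine synthesis, read 410.0 and 320.3 on the null-labelled array, against 849 and 456 on the wild-type-labelled array, log2 ratios of -1.05 and -0.51. Fto, an RNA demethylase, had 0.85 from 1430829_s_at but 0.05 from 1448223_at. P4ha1, a collagen prolyl hydroxylase induced in hypoxia like Kdm3a, had 0.71 and 0.28. Egln3, an oxygen sensor that is itself induced in hypoxia, read 2431 on the null-labelled array, against 1630.1 on the wild-type-labelled array with 1418648_at. This is a log2 ratio of 0.58, and it was 0.19 with 1418649_at. Of the same list, Egln1 had -0.02 and 0.36, Egln2 had 0.08 and Hif1an had 0.19.

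**Figure D4:**
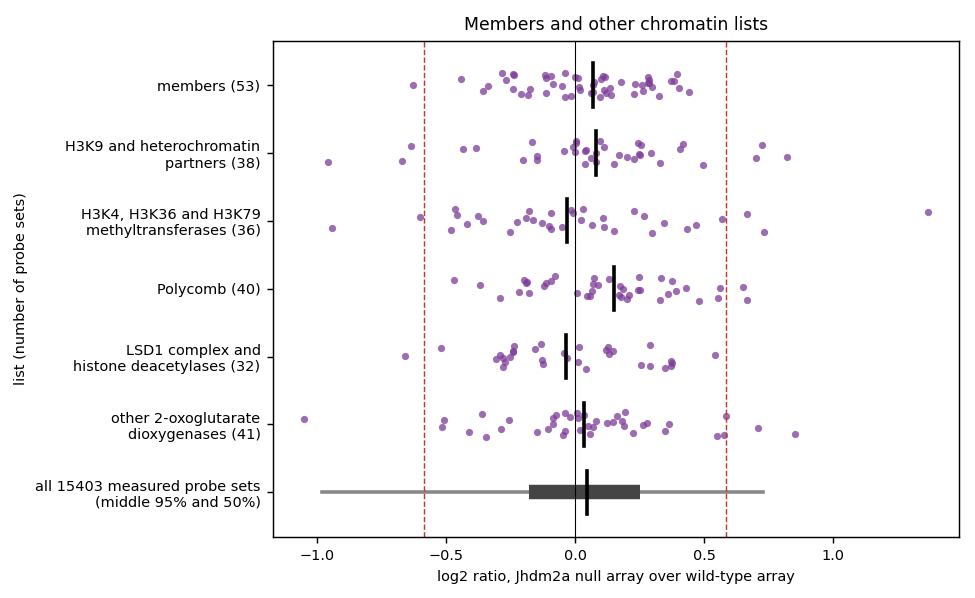
Log2 ratio of the null array over the wild-type array for the 53 member probe sets and for 5 lists of other chromatin genes and related dioxygenases, with a black bar at each median. The bottom row gives the middle 95% and 50% of all 15403 measured probe sets, and dashed lines stand at 1.5-fold. Medians of the lists run from -0.04 to 0.15.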

How the data were processed

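The series holds 2 arrays, 1 of Jhdm2a null and 1 of wild-type skeletal muscle, grouped by the source label. The deposited values are signal intensities, 1 per probe set and array, not log-transformed. According to the submitters' processing notes the authors used MAS5, with no version stated in the sources used here. Both columns had a 2% trimmed mean of 500, so they were used as deposited. No detection calls were used here, so a floor at the 60th percentile of the 45037 non-control probe sets stood in for them; 64 control probe sets were left out.

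Gene symbols came from the platform annotation: 34945 probe sets had 1 symbol, 932 several and 9160 none, and 34741 matched a RefSeq gene identifier. Log2 ratios are null over wild type, per probe set, with no pseudocount. A probe set was counted at 1.5-fold. No test was run, because 1 array per group leaves no residual degrees of freedom, and the number of arrays limits the precision. The SD of log2 ratios between probe sets of a gene is given, which is not an error between replicate arrays or pools. Members, gene lists and marker lists were chosen with earlier results of these data known. Probe sets are given in full for the KDM3 family and for members 1.5-fold apart, otherwise the brightest of each gene and those that disagree by over 0.5; of other lists, up to 3 genes past 1.5-fold. The rule does not cover Egln1, Egln2, Egln3, Hif1an, Kdm5d, Uty, Ppara or the further probe sets of named genes, which were chosen after seeing their values. The procedure was tested on simulated data, with planted differences that were larger than those of the members and lay in bright probe sets only. This does not test smaller differences or signals near the floor. Alternatives changed the normalization, the floor, a pseudocount, the kind of probe set, the unit per gene and the fold. Python 3.11.15, pandas 2.3.3, scipy 1.17.1 and statsmodels 0.14.6 were used.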

Additional observations from a re-analysis of the deposited data

How the results depend on the processing

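With 1 measured probe set for Kdm3a, the settings per gene left its value as it was. Its log2 ratio stayed above 0 in the other 7 alternatives that measured it. It ran from 0.22 with the median log2 ratio set to 0 to 0.30 after quantile normalization. Of these alternatives, only quantile normalization, median centring and loess could change its sign. With the floor at the 75th percentile Kdm3a went unmeasured. The member median ran from 0.006 after loess to 0.085 with the brightest probe set per gene. The median of the 5 other lists together ran from 4e-05 with median centring to 0.067 with the mean per gene. Neither median is read as a direction. The count of members past 1.5-fold was 1, and it was 1 after quantile normalization, median centring and loess, the same Kdm5a probe set each time. It was 0 with the floor at the 75th percentile, with a pseudocount of 50, without _s_at, _x_at and _a_at probe sets, with the mean of probe sets per gene, and with the brightest probe set per gene, 5 settings in which 9.73% to 11.5% of all features passed, and 0 at 2-fold (3.16% of all). It was 4 of 62 with the floor at the 50th percentile (6.45%, against 13.4% of all), 21 of 101 probe sets with no floor (20.8%, against 31.3% of all), and 10 at a log2 ratio of 0.32 in size, where 34.2% of all measured probe sets passed. The 20 added with no floor were below the floor on at least 1 array, where MAS5 signals are near background. Of the 53 member probe sets, 47 kept one sign in all settings that measured them. The other 6 had log2 ratios of at most 0.07 in size as reported. Only quantile normalization, median centring and loess could change a sign. The floors and the choice of probe sets kept each ratio as it was, and a pseudocount keeps its direction. No paired analysis was possible because each group has 1 array. Signal limits what can be read: 48 of 101 member probe sets had no ratio here, and Suv39h1, Suv39h2, Kdm4d and Cbx3 had none at all.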

Other observations

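Cbx3, which encodes HP1 gamma and had no measured probe set with a single symbol, was read by probe sets whose annotation also names the pseudogene Cbx3-ps5. These cannot be told apart from the gene. With 1416884_at the signal was 6881 on the null-labelled array, against 6944 on the wild-type-labelled array, a log2 ratio of -0.01. With 1448504_a_at it was 6028 on the null-labelled array, against 5414 on the wild-type-labelled array, a log2 ratio of 0.16, and with 1439421_x_at 2442 on the null-labelled array, against 2483 on the wild-type-labelled array. A Kdm6b probe set that is also annotated to 1700064E03Rik, 1440346_at, read 590.4 on the null-labelled array, against 602 on the wild-type-labelled array, a log2 ratio of -0.03.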
